A study of Mus musculus with 46 samples.

Results

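The genes described here mark the cells of the blood vessel wall: 25 genes of endothelial cells and 9 genes of mural cells, 34 in all. They were chosen by name, as a list of established markers, with earlier results of these data known. The shares of the list that were called are therefore set beside those of all probesets as a description only. Every probeset of the array that the platform annotation gives to a listed symbol was used. This gave 61 of the 45037 probesets, 42 for 24 endothelial genes and 19 for the 9 mural genes. Ly6c1 is not described, because its probeset is also annotated to Ly6c2, which left 33 of the 34 genes measured. Of these, 14 had 1 probeset and 19 had several, with at most 4, and the probeset with the highest mean over all arrays stands for its gene unless another is named.

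The RNA came from 46 adult male C57BL/6J mice, with 1 Affymetrix array per mouse. The tissue was the BNST, short for bed nucleus of the stria terminalis, which is part of the forebrain and relays stress signals. CIE (chronic intermittent ethanol) mice breathed ethanol vapor at 10 to 13 mg per litre of air for 16 h a day over 4 days, then spent 7 days without ethanol, and went through 4 such cycles. Before every cycle they were injected with ethanol (1.6 g/kg) and with pyrazole (1 mmol/kg), a blocker of alcohol dehydrogenase, whereas Ctrl mice breathed air and were injected with saline and the same dose of pyrazole, so that no group was free of the drug. Tissue was taken at 4 times counted from the end of the last chamber session (0 h, 8 h, 72 h and 7 d), with 6 mice in each group except for CIE at 7 d, which had 4. The dissected tissue was not sorted, so vessel cells contributed a part of the RNA that was not measured.

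Brain capillaries are tubes of endothelial cells sealed by tight junctions and furnished with transporters, which together form the blood-brain barrier. Pericytes lie on the capillary wall within the basement membrane and are held there by PDGF signalling through Pdgfrb, while smooth muscle cells wrap arterioles and set their diameter. VEGF acting on its receptor Kdr and angiopoietins acting on Tek keep the endothelium alive and in place.

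The 46 arrays had medians between 6.78 and 6.83 on the log2 scale and correlated pairwise at 0.981 to 0.998, and no 2 of them held identical values. CIE 8 h replicate 21 and Ctrl 0 h replicates 56 and 48 had the lowest mean correlation with the others (0.990, 0.990 and 0.991). Probes differ in brightness for the same amount of RNA, so intensities were compared between mice and not between genes, and how much vessel tissue each sample held was not measured. Markers of BNST neurons averaged 9.59 to 10.3 per mouse and those of medium spiny neurons of the adjoining striatum 9.41 to 11.2.

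At 0 h, 10 of the 61 vessel probesets (16.4%) differed between CIE and Ctrl at an adjusted p of 0.01 or less (limma, Benjamini-Hochberg over all probesets), against 2.40% of all probesets. The 10 belonged to 8 genes. Kdr, Itm2a, Emcn, Pltp, Rgs5, Kcnj8 and Vtn fell (9 probesets, 14.8%, against 1.35% of all probesets that fell), and Rhoj rose (1 probeset, 1.64%, against 1.05%). Endothelial genes gave 6 of 42 probesets and mural genes 4 of 19, all of the latter from pericyte genes. In 6 vessel probesets every CIE mouse lay below every Ctrl mouse (9.84%, against 1.35% of all probesets) and in 1 every CIE mouse lay above (against 1.15%). The median difference was -0.06 over the endothelial and -0.16 over the mural probesets, with 43 of all 61 below zero, whereas the median over all probesets was -0.003 with 51.1% below zero. In whole tissue, fewer cells of a type and less RNA per cell cannot be told apart.

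**Figure D1:**
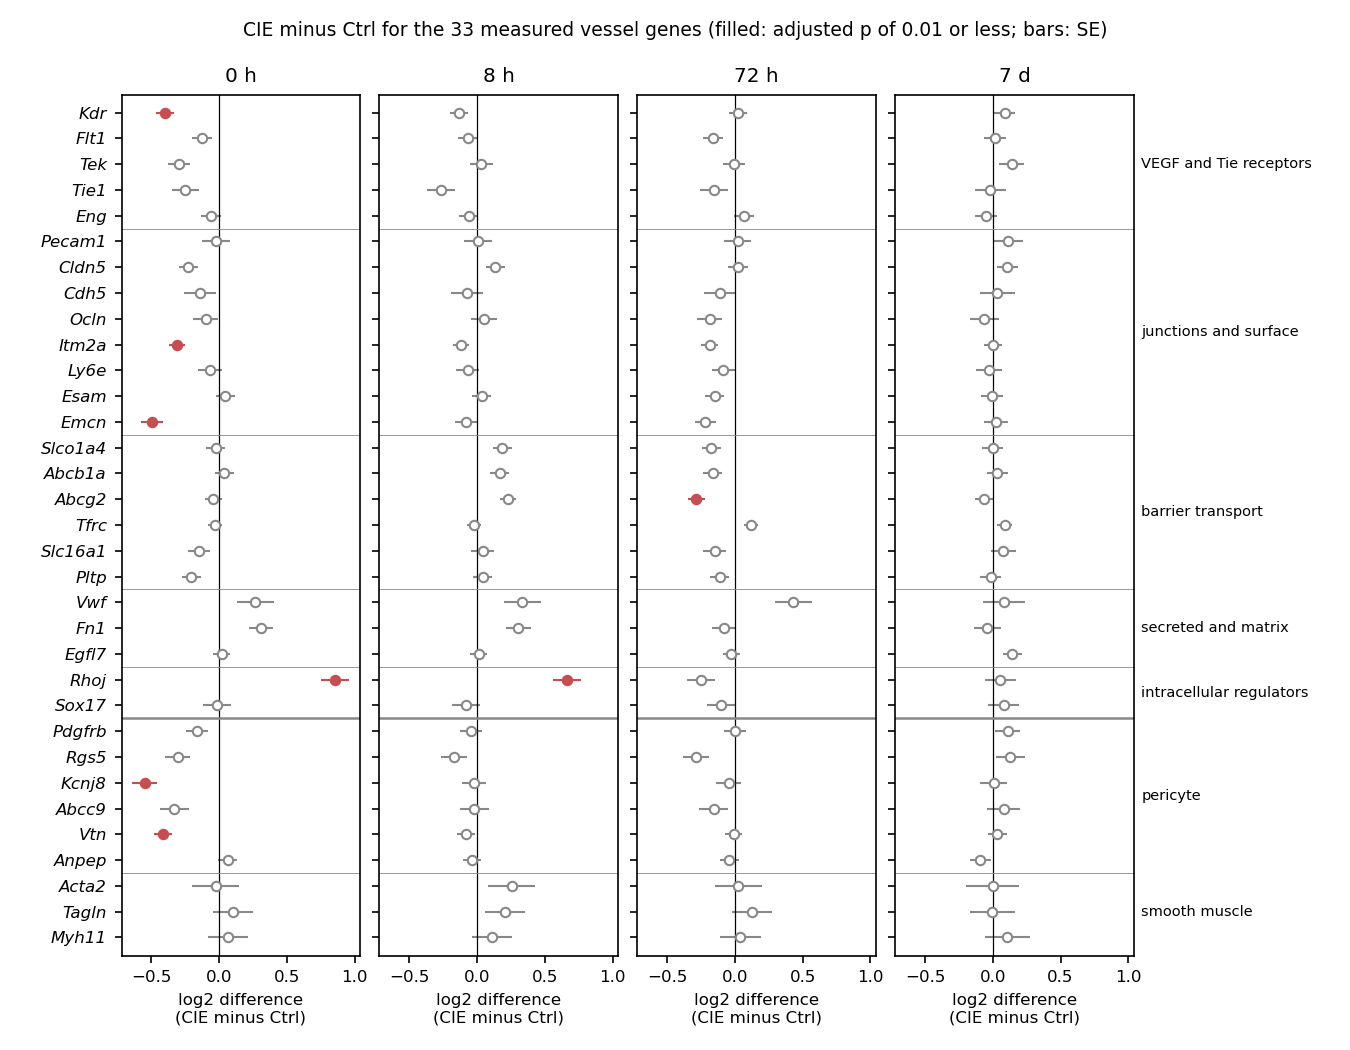
Each point is the log2 difference, CIE minus Ctrl, of 1 vessel gene (representative probeset) and each bar its SE, in 1 panel per time, with genes ordered by role and a heavier line between endothelial and mural genes. Filled points mark an adjusted p of 0.01 or less; at 0 h Kdr, Itm2a, Emcn, Kcnj8 and Vtn lie left of zero and Rhoj right of it, at 8 h only Rhoj is filled, at 72 h only Abcg2 and at 7 d none.

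Among the endothelial growth factor receptors, Kdr, the main signalling receptor for VEGF, was lower in CIE at 0 h. Its log2 intensity (1449379_at) was 7.85, 8.10 and 8.37 in the lowest, the median and the highest Ctrl mouse and 7.65, 7.70 and 7.80 in CIE. All 6 CIE mice lay below all 6 Ctrl mice, and the CIE mice were close together (SD 0.052, n = 6, against 0.185 in Ctrl, n = 6). The difference was -0.40 ± 0.07 (SE), a 1.32-fold lower level, with an adjusted p of 0.000122 in limma. At the later times the 2 groups overlapped, with differences of -0.13, 0.02 and 0.09 at 8 h, 72 h and 7 d, none called. The 4 CIE mice at 7 d had values of 7.91, 8.07, 8.13 and 8.21, within or above the Ctrl range of 7.94 to 8.07 but for the first.

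The other receptor genes were not called at any time. Tek, which binds the angiopoietins, had a difference of -0.30 ± 0.08 (SE) at 0 h with an adjusted p of 0.024, and its partner Tie1 had -0.25 and -0.27 at 0 h and 8 h with adjusted p of 0.166 and 0.248. Flt1, the VEGF receptor that acts largely as a decoy, had differences between -0.15 and 0.03 over its 4 probesets at 0 h, and Eng, a co-receptor for TGF-beta ligands, had -0.06 and -0.10 over its 2 probesets. All 5 receptor genes thus had a difference below zero at 0 h in their representative probeset, and Kdr alone passed the test.

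Of the 8 measured genes of cell junctions and the endothelial surface, Emcn and Itm2a fell at 0 h. Emcn, which encodes the sialomucin endomucin of the luminal surface, read 7.38, 7.60 and 7.86 (lowest, median and highest) in Ctrl and 6.98, 7.09 and 7.25 in CIE. The groups did not overlap, and the difference was -0.50 ± 0.08 (SE), a 1.41-fold lower level with an adjusted p of 5.24e-05. By 8 h the CIE mice spanned 7.32 to 7.90 and the Ctrl mice 7.33 to 7.70, so the ranges overlapped almost wholly, and the differences at 8 h, 72 h and 7 d were -0.08, -0.22 and 0.02, none called. The CIE mice at 7 d had values of 7.41, 7.53, 7.57 and 7.58 and the Ctrl mice 7.37 to 7.60.

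Itm2a, an integral membrane protein gene used as a marker of brain endothelium, fell in both of its probesets. The brighter one (1423608_at) read 11.63, 11.98 and 12.03 in Ctrl at 0 h and 11.45, 11.63 and 11.89 in CIE. The ranges overlapped, since 1 Ctrl mouse (replicate 48) lay at 11.63, and 3 of 6 CIE mice were below all Ctrl mice. The difference was -0.31 ± 0.06 (SE) with an adjusted p of 0.000841. The other probeset (1451047_at) read 10.60, 10.83 and 10.91 in Ctrl and 10.27, 10.41 and 10.59 in CIE, without overlap, and differed by -0.35 ± 0.05 (SE) with an adjusted p of 2.51e-05. At 72 h every CIE mouse lay below every Ctrl mouse in both probesets, at -0.19 and -0.25, but the adjusted p of 0.109 and 0.0102 missed the threshold. At 7 d the brighter probeset differed by 0.00, with CIE mice at 11.86, 11.87, 11.90 and 12.07 over a Ctrl range of 11.79 to 12.04.

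The genes that seal the endothelium were not called in CIE against Ctrl. Cldn5, the dominant claudin of the blood-brain barrier, read 9.63, 9.90 and 10.07 in Ctrl at 0 h and 9.39, 9.69 and 9.84 in CIE, an overlapping difference of -0.23 ± 0.07 (SE) with an adjusted p of 0.0524. Cdh5, the cadherin of endothelial adherens junctions, read 6.95, 7.13 and 7.26 in Ctrl and 6.86, 6.99 and 7.10 in CIE, and Pecam1, an adhesion molecule at endothelial contacts, read 6.25, 6.50 and 6.70 in Ctrl and 6.26, 6.47 and 6.72 in CIE. Neither gene separated the groups (differences of -0.14 and -0.02, adjusted p of 0.630 and 0.950). Ocln, which encodes the tight junction protein occludin, had -0.10 and -0.22 in its 2 probesets, with adjusted p of 0.691 and 0.0476, Ly6e -0.07 and 0.08, and Esam, an adhesion molecule of endothelial contacts, 0.04.

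Of the member genes of barrier transport, only Pltp had a probeset called at 0 h. The representative probesets of Slco1a4, an organic anion transporter, of the efflux pumps Abcb1a and Abcg2, of the transferrin receptor Tfrc and of the lactate and ketone body carrier Slc16a1 lay between -0.15 and 0.04. Their other probesets lay between -0.29 (Tfrc 1422967_a_at) and 0.16 (Abcb1a 1419758_at), and none was called. Pltp, the phospholipid transfer protein, fell in 1 of its 2 probesets (1417963_at), which read 7.83, 7.91 and 7.94 in Ctrl and 7.43, 7.61 and 7.86 in CIE. Of the CIE mice 5 of 6 lay below all Ctrl mice, and the difference was -0.28 ± 0.07 (SE) with an adjusted p of 0.00741. The brighter Pltp probeset (1456424_s_at) had -0.20 ± 0.07 (SE) with an adjusted p of 0.0815, and the call of the first was kept in 37 of 46 fits that each left out 1 array. It was also lost with array medians aligned (adjusted p 0.0109).

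Rhoj, which acts on the shape and sprouting of endothelial cells, was the only one of the 33 genes called higher in CIE than in Ctrl. At 0 h it read 7.69, 7.83 and 7.91 in Ctrl and 8.38, 8.70 and 8.87 in CIE, and at 8 h 7.18, 7.37 and 7.49 in Ctrl and 7.76, 7.96 and 8.56 in CIE. All 6 CIE mice lay above all 6 Ctrl mice at both times. The differences were 0.86 ± 0.10 (SE), a 1.81-fold higher level with an adjusted p of 3.46e-07, and 0.67 ± 0.10 (SE), 1.59-fold with an adjusted p of 9.33e-05. At 72 h the CIE mice read 7.18, 7.37 and 7.45 and the Ctrl mice 7.33, 7.53 and 8.00, a difference of -0.25 that was not called (adjusted p 0.254). At 7 d the CIE values were 7.30, 7.59, 7.61 and 7.81 within a Ctrl range of 7.30 to 7.68 but for the highest. The endothelial transcription factor gene Sox17 had -0.02 and -0.12 in its 2 probesets at 0 h.

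The secreted and matrix genes of the endothelium had no probeset called at any time. Vwf, the clotting protein stored in endothelial granules, had differences of 0.27, 0.33 and 0.43 at 0 h, 8 h and 72 h and 0.08 at 7 d, with adjusted p of 0.324, 0.316, 0.0948 and 1. Fn1, the matrix protein fibronectin, had 0.31 ± 0.09 (SE) at both 0 h and 8 h, with adjusted p of 0.0326 and 0.0799, and its dimmer probeset (1437218_at) had 0.25 and 0.57, with adjusted p of 0.425 and 0.0362. Egfl7, a secreted protein of sprouting vessels, stayed between -0.09 and 0.06 over its 4 probesets at 0 h.

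**Figure D2:**
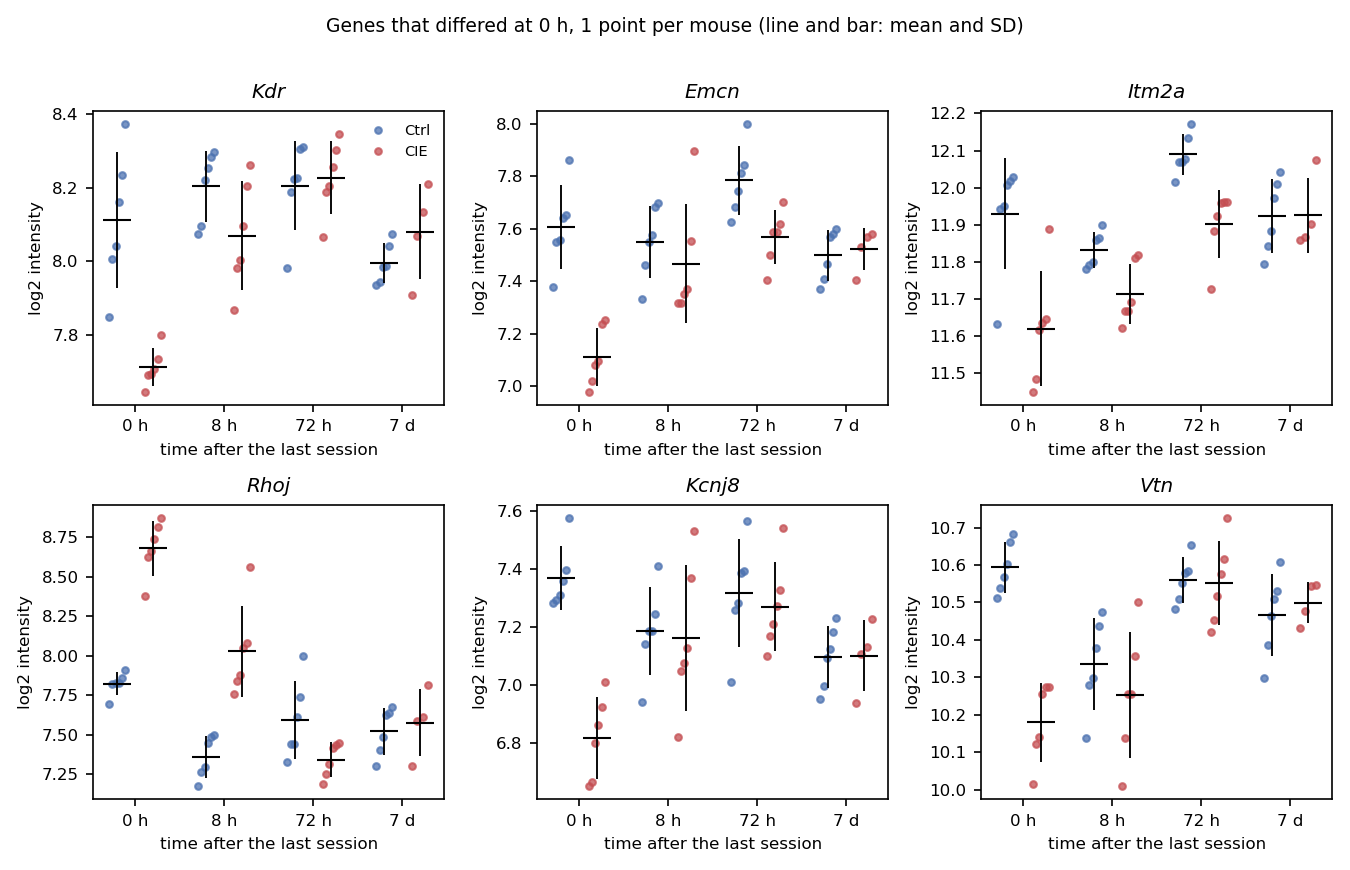
Each point is the log2 intensity of 1 mouse in 1 of the 8 groups (blue Ctrl, red CIE; 6 mice, 4 for CIE at 7 d), with the mean as a line and the SD as a bar, against time after the last chamber session. At 0 h the CIE points lie below the Ctrl points without overlap for Kdr, Emcn, Kcnj8 and Vtn, overlap by 1 Ctrl mouse at 11.63 for Itm2a, and lie above for Rhoj at 8.38 to 8.87; by 7 d the groups overlap in all 6 genes.

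Among the mural genes, the calls at 0 h came from pericyte genes. Of 13 pericyte probesets 4 fell (30.8%, against 1.35% of all probesets) and 12 lay below zero (against 51.1%), with a median of -0.33. The 13 came from only 6 genes and are not independent, and the 4 that fell were those of Kcnj8, Vtn (both) and Rgs5. None of 6 smooth muscle probesets was called, a count too small to read against that background, and their median was 0.05. Among them, Acta2 1456658_at and 1444105_at and Myh11 1418122_at were dim, at percentiles 9.55, 9.3 and 22.8 of all probesets by mean. So were Anpep (11.4), the pericyte probeset above zero, and Abcc9 1420408_a_at (21.2). Whether these dim probesets detected their transcripts was not tested. Averaged over the 6 pericyte genes, the mice spanned 8.22 to 8.58 in Ctrl and 8.03 to 8.22 in CIE. Averaged over the 3 smooth muscle genes, they spanned 7.55 to 8.30 in Ctrl and 7.55 to 8.26 in CIE, with the 2 ranges nearly the same. Whether the 2 cell types differed in their response was not tested.

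Kcnj8, the pore-forming subunit of the pericyte ATP-sensitive potassium channel, read 7.28, 7.34 and 7.58 in Ctrl at 0 h and 6.65, 6.83 and 7.01 in CIE. The groups did not overlap, and the difference was -0.55 ± 0.09 (SE), a 1.46-fold lower level with an adjusted p of 7.91e-05. Its regulatory partner Abcc9, the sulfonylurea receptor of the same channel, had -0.33, -0.13 and -0.21 in 3 probesets, of which the first had the smallest adjusted p (0.0619). For Kcnj8 the differences at 8 h, 72 h and 7 d were -0.02, -0.05 and 0.00, and the CIE mice at 7 d read 6.94, 7.11, 7.13 and 7.23.

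Vtn, which encodes the matrix protein vitronectin and is made by brain pericytes, fell in both probesets. The brighter one (1420484_a_at) read 10.51, 10.59 and 10.68 in Ctrl and 10.01, 10.20 and 10.27 in CIE, and the other (1455098_a_at) read 9.35, 9.47 and 9.56 in Ctrl and 8.84, 9.02 and 9.11 in CIE. Neither showed overlap of the groups. The differences were -0.41 ± 0.06 (SE) and -0.45 ± 0.06 (SE), 1.33-fold and 1.37-fold lower, with adjusted p of 2.15e-05 and 6.66e-06. At 8 h both probesets had a difference of -0.08, at 72 h -0.01 and -0.04, and at 7 d 0.03 and -0.02, none called. The CIE mice at 7 d read 10.43, 10.48, 10.54 and 10.55 in the brighter probeset.

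Rgs5, a regulator of G protein signalling abundant in pericytes, had 4 probesets below zero at 0 h, of which 1 fell. The called one (1420940_x_at) read 8.23, 8.56 and 8.85 in Ctrl and 7.77, 7.98 and 8.39 in CIE, with 5 of 6 CIE mice below all Ctrl mice and a difference of -0.54 ± 0.13 (SE, adjusted p 0.00662). The brightest (1417466_at) read 11.07, 11.36 and 11.57 in Ctrl and 10.91, 11.03 and 11.22 in CIE, with -0.31 ± 0.09 (SE, adjusted p 0.0480), and the remaining 2 had -0.38 and -0.34 and were not called. The _x_at suffix marks a probeset that may also match other transcripts, and its call was kept in 38 of 46 fits that each left out 1 array and lost without the 3 arrays that correlated least with the rest (adjusted p 0.0111).

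Pdgfrb, the receptor that anchors pericytes to vessels, was not called. It read 8.84, 9.18 and 9.32 in Ctrl at 0 h and 8.78, 9.01 and 9.11 in CIE, and both of its probesets had -0.16 with adjusted p of 0.305 and 0.448. Anpep, a surface peptidase of pericytes, had 0.06. Of the contractile genes of smooth muscle, Acta2 (alpha-actin) read 8.64, 9.56 and 9.78 in Ctrl at 0 h and 8.86, 9.36 and 9.69 in CIE, ranges that overlapped almost fully (difference -0.03 ± 0.17, SE, adjusted p 0.969). Tagln (transgelin) had 0.10 and Myh11 (smooth muscle myosin heavy chain) 0.06 and 0.05.

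The promoters of the 6 genes called at 0 h in their representative probeset are shown because 5 of them moved down together and Rhoj moved the other way. Each run gives the 250 bases before the gene start, 5′ to 3′ along the gene's strand, from RefSeq (GRCm38.p6). Capitals mark matches on either strand to 3 short motifs: the core bound by ETS factors of endothelial cells (GGAAG or CTTCC), a SOX motif (AACAAT or ATTGTT) and a glucocorticoid receptor half-site (AGAACA or TGTTCT). Kdr is at chr5:75978456-75978705 (minus strand), Itm2a at chrX:107403361-107403610 (minus strand), Emcn at chr3:137340828-137341077 (plus strand), Rhoj at chr12:75308063-75308312 (plus strand), Kcnj8 at chr6:142571615-142571864 (minus strand) and Vtn at chr11:78498870-78499119 (plus strand).
Kdr: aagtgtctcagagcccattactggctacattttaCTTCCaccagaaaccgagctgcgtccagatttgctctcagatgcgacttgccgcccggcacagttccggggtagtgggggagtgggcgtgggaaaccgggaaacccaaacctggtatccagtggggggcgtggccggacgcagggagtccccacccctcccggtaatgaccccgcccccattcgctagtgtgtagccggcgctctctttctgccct
Itm2a: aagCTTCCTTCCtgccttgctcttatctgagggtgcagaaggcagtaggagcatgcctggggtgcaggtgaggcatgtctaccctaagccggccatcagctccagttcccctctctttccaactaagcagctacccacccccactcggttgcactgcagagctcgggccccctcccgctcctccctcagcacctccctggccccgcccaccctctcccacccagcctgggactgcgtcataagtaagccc
Emcn: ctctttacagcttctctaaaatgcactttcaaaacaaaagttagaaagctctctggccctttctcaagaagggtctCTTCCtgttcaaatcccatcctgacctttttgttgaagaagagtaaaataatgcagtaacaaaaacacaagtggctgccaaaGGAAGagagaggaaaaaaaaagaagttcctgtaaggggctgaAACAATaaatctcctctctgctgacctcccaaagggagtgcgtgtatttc
Rhoj: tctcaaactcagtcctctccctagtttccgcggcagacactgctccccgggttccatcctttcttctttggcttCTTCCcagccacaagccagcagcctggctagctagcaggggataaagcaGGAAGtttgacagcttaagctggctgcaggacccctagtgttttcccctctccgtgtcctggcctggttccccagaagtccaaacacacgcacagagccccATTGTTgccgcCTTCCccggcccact
Kcnj8: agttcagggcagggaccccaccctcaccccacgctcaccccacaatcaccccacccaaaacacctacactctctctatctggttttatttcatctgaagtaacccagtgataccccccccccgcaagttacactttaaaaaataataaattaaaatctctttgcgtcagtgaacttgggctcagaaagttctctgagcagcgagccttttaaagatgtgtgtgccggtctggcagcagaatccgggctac
Vtn: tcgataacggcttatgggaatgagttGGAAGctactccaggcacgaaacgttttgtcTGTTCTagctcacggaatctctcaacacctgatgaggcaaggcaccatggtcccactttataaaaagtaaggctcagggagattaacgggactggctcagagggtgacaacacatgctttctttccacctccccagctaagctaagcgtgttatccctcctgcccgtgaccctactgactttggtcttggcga
Among 32851 mouse promoter windows of the same length, 64.1% held the ETS core, 9.42% the SOX motif and 16.1% the half-site. The ETS core was present once in Kdr and Vtn, at 2 places in Itm2a and Emcn and at 3 in Rhoj, and the SOX motif in Emcn and Rhoj. The half-site occurred in Vtn, and Kcnj8 held none of the 3 motifs. A match describes the letters only.

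The larger set of vessel genes fixed for comparison, 9 lists with 176 measured genes that are not among the 33, had 17 calls at 0 h: 8 genes rose and 9 fell (9.66%, against 3.09% of all genes by representative probeset), with a median difference of -0.03. These lists too were chosen with earlier results of these data known. The ligand and co-receptor list of 17 genes had Angptl4 rising (0.72) and Pdgfb, the pericyte-recruiting ligand of Pdgfrb, and Apln, the apelin peptide of sprouting endothelium, falling (-0.29 and -0.39). Of 22 barrier transporters, the glucose carrier Slc2a1 (0.34) and the lipid carrier Mfsd2a (0.37) were among the 3 that rose and the amino acid carrier Slc38a5 (-0.57) among the 2 that fell. Angptl4 and Pdgfb each had 1 other probeset, which was not called, and 1 of the 2 others of Slc2a1 was called. Several of these genes are also expressed in other brain cells.

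The junction list of 14 genes had 1 call, the adhesion molecule Jam2 (-0.40), and the list of 17 endothelial transcription factors had none, with a median of -0.05. Of 31 surface and vascular tone genes, the caveolar coat gene Cavin2 (0.62) and Plvap, which builds the diaphragms of leaky endothelium (0.42), rose and Ecscr, an endothelial adhesion gene, fell (-0.52). Notch1 (-0.34) and its ligand Jag1 (-0.39) fell among 19 Wnt and Notch genes. In the basement membrane list of 19 genes Fbln5 rose (0.82) and the protease Adamts1 fell (-0.62). None of the 4 other probesets of Jam2 or the 2 others of Jag1 was called. Notch1 and Fbln5 each had 1 other, also not called, whereas the 2 others of Cavin2 were called as well.

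The additional mural lists gave 1 call. None of 20 further pericyte genes was called at 0 h and their median was -0.06, and of 18 further smooth muscle genes only Tinagl1 rose (0.33), with a median of -0.01. At 8 h Edn1 (endothelin, 0.43), Cavin2 (0.35) and Fbln5 (0.84) rose of the 176 genes (1.70%, against 0.742% of all genes), the last with its other probeset of opposite sign. The 2 other Cavin2 probesets were not called at 8 h. At 72 h and 7 d none of the 176 was called by limma.

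Markers of other cell types moved with CIE at 0 h beside the vessel genes. Of all genes, 3.09% were called at 0 h by representative probeset. In lists this short, 0 or 1 call is too small a count to read against that share. Of 12 microglial markers 3 fell, Fcrls by 1.30, Olfml3 by 0.60 and Gpr34 by 0.49, with a median of -0.35 and mouse means over the list of 8.86 to 9.31 in Ctrl and 8.50 to 8.90 in CIE. Of 8 markers of perivascular macrophages, which lie against the vessel wall, Lyve1 (0.85) and Cd163 (0.55) rose, with a median of 0.22 and mouse means of 5.59 to 5.98 in Ctrl and 5.88 to 6.27 in CIE. The other Lyve1 probeset was not called. None of 13 fibroblast and meningeal, 13 astrocyte, 13 neuronal or 5 red blood cell markers was called, with medians of -0.01, -0.08, -0.07 and -0.10, and red cell list means of 5.12 to 5.48 in Ctrl and 5.08 to 5.28 in CIE. Striatal markers had a median of 0.36 with 0 of 8 called, at 9.57 to 10.40 in Ctrl and 9.90 to 10.96 in CIE. Their part in the result was not tested.

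Of the remaining lists at 0 h, 1 of 11 oligodendrocyte markers fell (Ugt8a, -0.39), 1 of 11 choroid plexus markers rose (Kl, 0.42) and 1 of 11 BNST neuron markers rose (Oprk1, 0.45), while none of 7 oligodendrocyte precursor markers was called. These counts too are too small to read against the 3.09% of all genes. Ugt8a, Kl and Oprk1 each had 1 other probeset, which was not called. Fitting the 2 groups of 0 h alone left 5 of the 10 calls, those of Emcn, Rhoj, Kcnj8 and the 2 Vtn probesets. The calls of Kdr, Pltp, Rgs5 and the 2 Itm2a probesets were lost there, with the same differences and adjusted p between 0.0178 and 0.0885.

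At 8 h, Rhoj was the only vessel probeset called (1 of 61, 1.64%, against 0.557% of all probesets), and the fit of the 2 groups alone did not keep it (adjusted p 0.0321). Abcg2, the efflux pump also known as breast cancer resistance protein, was the other gene whose groups did not overlap, so that 2 vessel probesets lay wholly higher in CIE (against 0.524% of all probesets) and none wholly lower (against 0.577%). It read 8.98, 9.05 and 9.10 in Ctrl and 9.14, 9.26 and 9.45 in CIE, a difference of 0.23 ± 0.06 (SE) that missed the threshold (adjusted p 0.0376). The other efflux and anion transporters had positive differences as well, of 0.17 and 0.30 for the 2 Abcb1a probesets and 0.19 for Slco1a4, with adjusted p of 0.330, 0.196 and 0.217. The median over all 61 probesets was -0.01. Beside these, the microglial marker Fcrls (-0.86) and the precursor marker Gpr17 (-0.50) fell and the astrocyte marker Gjb6 rose (0.47). Of all genes, 0.742% were called at 8 h.

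At 72 h, Abcg2 fell, the only call among the 61 probesets (1.64%, against 0.433%). It read 9.24, 9.42 and 9.47 in Ctrl and 8.97, 9.11 and 9.23 in CIE, without overlap, a difference of -0.28 ± 0.06 (SE), 1.22-fold lower with an adjusted p of 0.00805. Its direction was thus opposite to that at 8 h, where the difference was not called. The call was lost in 10 of 46 fits that each left out 1 array, and in the fit of the 2 groups alone (adjusted p 0.0132). Groups that did not overlap, with CIE lower, were found for 4 vessel probesets (6.56%, against 1.24% of all probesets): Abcg2, both of Itm2a, and the brightest of Rgs5, which read 11.36 to 11.68 in Ctrl and 11.03 to 11.27 in CIE (-0.29, adjusted p 0.113). None lay wholly higher (against 1.66%). Of the 11 barrier transport probesets 10 were below zero (against 50.2% of all probesets), with a median of -0.15 (against -0.0004). Some of these genes gave several of the probesets, so the 11 are not independent. Whole marker lists of other cells also separated the same mice at 72 h, when 0.687% of all genes were called and 51.7% were below zero. Averaged per mouse, 11 BNST neuron markers spanned 9.64 to 9.94 in Ctrl and 10.12 to 10.35 in CIE, without overlap, with all 11 differences above zero and Oxtr called (0.40). Microglial markers spanned 9.16 to 9.28 in Ctrl and 8.69 to 9.05 in CIE, with all 12 below zero and none called. Oligodendrocyte markers spanned 11.75 to 11.85 in Ctrl and 11.43 to 11.60 in CIE, with all 11 below zero and Opalin called (-0.39), and the 7 markers of their precursors 10.31 to 10.50 and 10.06 to 10.26, with Gpr17 called (-0.48). In the astrocyte and choroid plexus lists, whose ranges overlapped, S100b fell (-0.25) and Otx2 rose (0.73). Oxtr, Opalin and S100b each had 1 other probeset, which was not called. The microglial, oligodendrocyte and precursor lists were thus lower in CIE, as Abcg2 was, and the BNST neuron list was higher. The part of these markers in the result was not tested.

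At 7 d no vessel probeset was called by limma (0 of 61, against 0% of all probesets), and 5 of 61 had an unadjusted p under 0.05 (8.20%, against 4.94% of all). The smallest adjusted p among the members was 0.847. The median difference was 0.01 for vessel probesets with 26 of 61 below zero, close to the median of 0.007 over all probesets with 46.1% below zero. Cldn5 was wholly higher in CIE by a narrow gap, with values of 9.467, 9.478, 9.485 and 9.522 over a Ctrl range of 9.265 to 9.465 (0.11 ± 0.08, SE). The Rgs5 probeset 1420941_at was wholly lower (-0.44 ± 0.20, SE). Such separation was found in CIE higher for 0.544% and in CIE lower for 0.573% of all probesets. The 4 mice of CIE at 7 d give the least precise mean. The other Rgs5 probesets overlapped between the groups and differed in direction. The brightest (1417466_at) read 11.14 to 11.44 in Ctrl and 11.23 to 11.62 in CIE. Another (1420942_s_at) read 8.50 to 9.10 in Ctrl and 8.67 to 9.19 in CIE. The last (1420940_x_at) read 8.53 to 8.92 in Ctrl and 8.15 to 8.62 in CIE.

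Whether the CIE effect itself changed between times was tested with 1 F test per probeset. Of the 61 probesets 6 were called (9.84%, against 1.04% of all): Kdr (adjusted p 0.00699), 1 of Itm2a (0.00699), Abcg2 (0.00121), Rhoj (3.68e-06) and both of Vtn (0.00562 and 0.00593). Over the 4 times as a whole, 10 probesets were called for CIE against Ctrl (16.4%, against 2.84%), 6 endothelial and 4 mural.

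Between 0 h and 72 h the effect was called as changed for 4 probesets (6.56%, against 0.988% of all), between 0 h and 7 d for 3 (4.92%, against 0.437%) and between 8 h and 72 h for 2 (3.28%, against 0.515%). The effect on Kdr moved by 0.42 ± 0.10 (SE) from 0 h to 72 h and by 0.49 ± 0.10 to 7 d, with adjusted p of 0.00858 and 0.00651, and that on Vtn by 0.41 ± 0.09 to 72 h in both probesets (0.00617 and 0.00657). Both had been lower in CIE at 0 h, so the movement was back toward Ctrl. The effect on Rhoj moved by -1.11 ± 0.15 from 0 h and by -0.92 ± 0.15 from 8 h to 72 h (adjusted p of 4.59e-06 and 0.000234), and by -0.80 ± 0.16 from 0 h to 7 d (0.00261). For Abcg2 the step from 8 h to 72 h was -0.51 ± 0.08 (0.000329). From 0 h to 8 h no vessel probeset changed its effect by this test (0 of 61, against 0.0799%), and the comparisons of effects share their 0 h mice.

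Ctrl mice also changed over time in vessel genes. The F test over the 4 Ctrl groups called 13 of 61 probesets (21.3%, against 10.9% of all), from 10 genes: Cldn5, Ocln, Itm2a, Slco1a4, Abcb1a, Abcg2, Rhoj, Pltp, Rgs5 and Vtn. Over the CIE groups it called 17 (27.9%, against 7.76%), from 13 genes. Mice taken 8 h after the session were also taken at another hour of the day than those at 0 h, and the 2 cannot be told apart.

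Cldn5 declined in Ctrl mice by 7 d. It read 9.63 to 10.07 at 0 h, 9.58 to 10.02 at 8 h, 9.66 to 9.91 at 72 h and 9.26 to 9.46 at 7 d. The 7 d mice lay below all other Ctrl mice, and the difference from 0 h was -0.50 ± 0.07 (SE, adjusted p 7.99e-06), the single member call between these times (1.64%, against 2.23%). The CIE mice spanned 9.79 to 10.15 at 8 h and 9.47 to 9.52 at 7 d, and their difference between 7 d and 0 h was not called. Rhoj in Ctrl fell by 0.46 ± 0.10 (SE) from 0 h to 8 h (adjusted p 0.00901, also the single call, against 0.713%), when 6 of 6 mice were below the lowest at 0 h. From 0 h to 72 h no member was called in Ctrl by limma (against 0.173% of all).

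Of the 11 barrier transport probesets 5 were called over time in Ctrl (45.5%, against 10.9% of all probesets), those of Abcg2, Abcb1a (1 of 2), Slco1a4 and Pltp (both). Some genes gave several of the 11, which are therefore not independent. Abcg2 in Ctrl had medians of 9.27, 9.05, 9.42 and 9.12 at 0 h, 8 h, 72 h and 7 d, and in CIE 9.22, 9.26, 9.11 and 9.05, so its highest median was at 72 h in Ctrl and at 8 h in CIE. Abcb1a had Ctrl medians of 9.19, 8.95, 9.28 and 8.95 and Slco1a4 10.52, 10.46, 10.77 and 10.53, so that all 3 transporters had their highest Ctrl median at 72 h. Marker lists of other cells moved in the same mice: between Ctrl at 8 h and at 72 h the mean per mouse went from 8.72 to 9.10 up to 9.16 to 9.28 for microglia, from 11.38 to 11.71 up to 11.75 to 11.85 for oligodendrocytes and from 10.05 to 10.23 up to 10.31 to 10.50 for their precursors, and from 10.02 to 10.31 down to 9.64 to 9.94 for BNST neurons. None of these ranges overlapped, and their part in the time course was not tested. The CIE medians were 9.13, 9.09, 9.06 and 8.98 for Abcb1a and 10.46, 10.59, 10.58 and 10.48 for Slco1a4. The F test over the CIE groups did not call Abcg2, Abcb1a or Slco1a4 (adjusted p of 0.0700, 0.464 and 0.180). In Pltp (1456424_s_at) the Ctrl medians were 10.03, 9.90, 10.25 and 10.21 and the CIE medians 9.81, 9.93, 10.14 and 10.18.

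**Figure D3:**
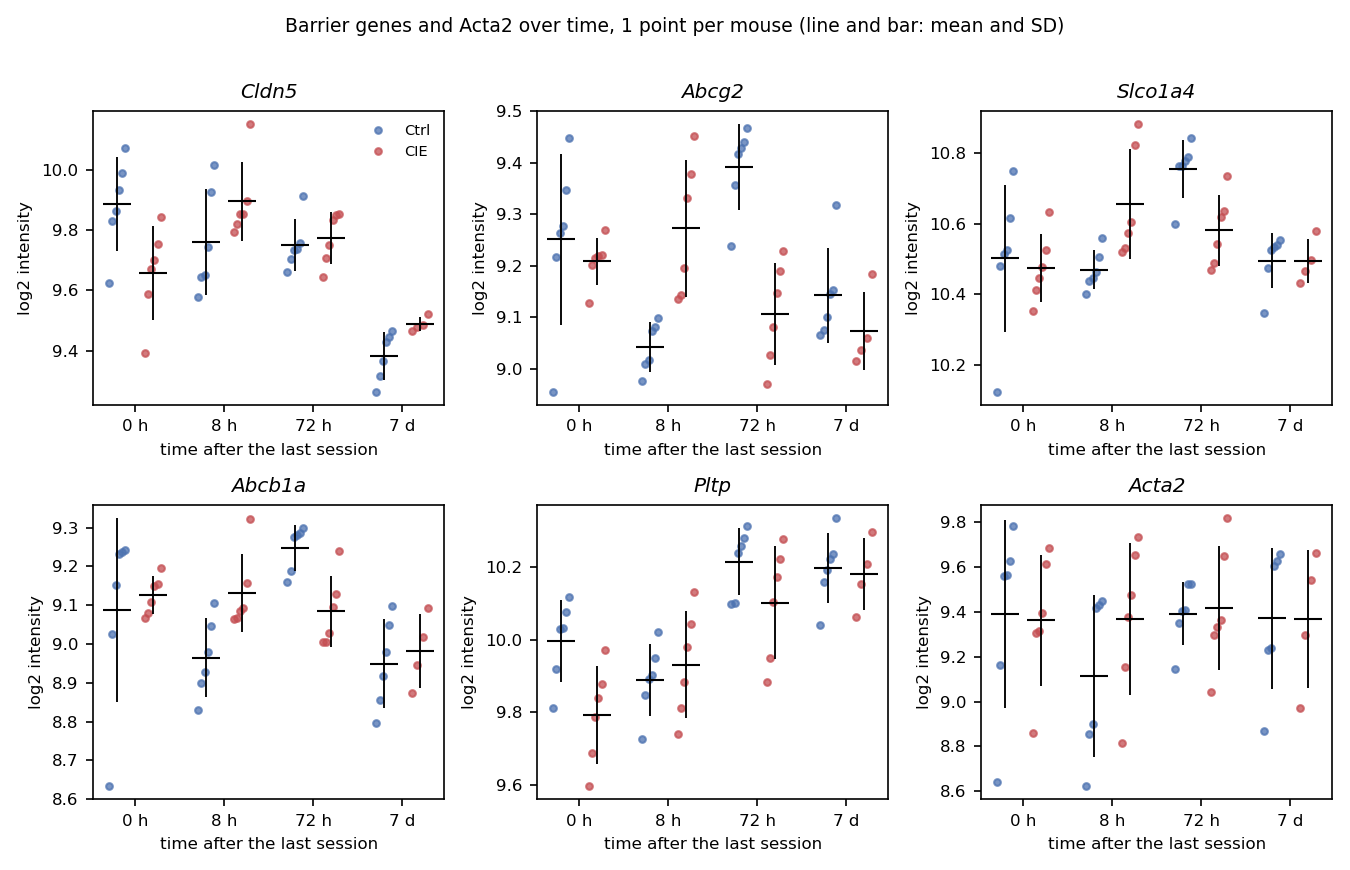
Each point is the log2 intensity of 1 mouse in 1 of the 8 groups (blue Ctrl, red CIE; 6 mice, 4 for CIE at 7 d), with the mean as a line and the SD as a bar, for 5 barrier genes and the smooth muscle gene Acta2. Cldn5 is lowest at 7 d in both treatments, Abcg2 has CIE above Ctrl at 8 h and below it at 72 h, and Acta2 spreads from about 8.62 to 9.82 with the groups overlapping at every time.

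Within CIE, most genes that had fallen against Ctrl at 0 h were called higher at 72 h than at 0 h. Rgs5 was not, and its probeset that fell at 0 h had CIE medians of 7.98, 7.71 and 7.90 at 0 h, 8 h and 72 h. Kdr rose by 0.36 ± 0.07 (SE) to 8 h and by 0.52 ± 0.07 to 72 h, Emcn by 0.36 ± 0.08 and 0.46 ± 0.08, and Tek, which was not called against Ctrl, by 0.36 ± 0.08 and 0.42 ± 0.08, each with an adjusted p of 0.00444 or less. Both probesets of Itm2a, Pltp and Vtn and the one of Kcnj8 rose to 72 h, by 0.25 to 0.45, and were not called at 8 h. By 7 d, 8 probesets were called higher than at 0 h and Rhoj lower (9 calls, 14.8%, against 2.49% of all). All of these steps use the same 6 CIE mice of 0 h as the comparison with Ctrl at 0 h. In all, 11 of 61 probesets rose from 0 h to 72 h in CIE and Rhoj fell by 1.34 ± 0.10 (12 calls, 19.7%, against 6.07%). Rhoj had already fallen by 0.65 ± 0.10 at 8 h (5 calls in all between these times, 8.20%, against 3.24%).

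The remaining genes called over time in CIE were Flt1, Vwf, Fn1, Cldn5 and Rgs5. Tek read 7.52, 7.75 and 7.79 (lowest, median, highest) at 0 h and 7.86, 7.94 and 8.40 at 8 h, without overlap, and 7.87, 7.90, 7.93 and 7.93 at 7 d. Flt1 moved in 1 of 4 probesets (1440926_at), with 6.63 to 6.88 at 0 h, 7.05 to 7.63 at 8 h and 6.83 to 7.45 at 72 h, while its representative probeset was not called (adjusted p 0.753). Vwf had CIE medians of 7.46, 7.48, 7.68 and 6.96 and Ctrl medians of 7.20, 7.23, 7.28 and 6.84 at 0 h, 8 h, 72 h and 7 d, lowest at 7 d in both. Fn1 (1426642_at) had CIE medians of 9.12, 9.11, 8.95 and 8.74, and Ocln, called in Ctrl (1440220_at), had Ctrl medians of 6.82, 6.88, 7.02 and 6.74. The smooth muscle genes were called in neither treatment, with Acta2 medians between 9.16 and 9.56 in all 8 groups.

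Across mice, vessel genes varied together on average, but not every gene took part. After the mean of each group was taken out, the mean Pearson correlation over 46 mice was 0.33 between pairs of endothelial genes, 0.38 between pericyte genes and 0.74 between the 3 smooth muscle genes (0.71 to 0.76), against 0.04 over all pairs of genes. Endothelial genes correlated with pericyte genes at a mean of 0.35 and with smooth muscle genes at 0.33. Rhoj correlated with the 23 other endothelial genes at a mean of only 0.095 (-0.18 to 0.38). These correlations share arrays, dissection and normalization, and are given as a description.

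**Figure D4:**
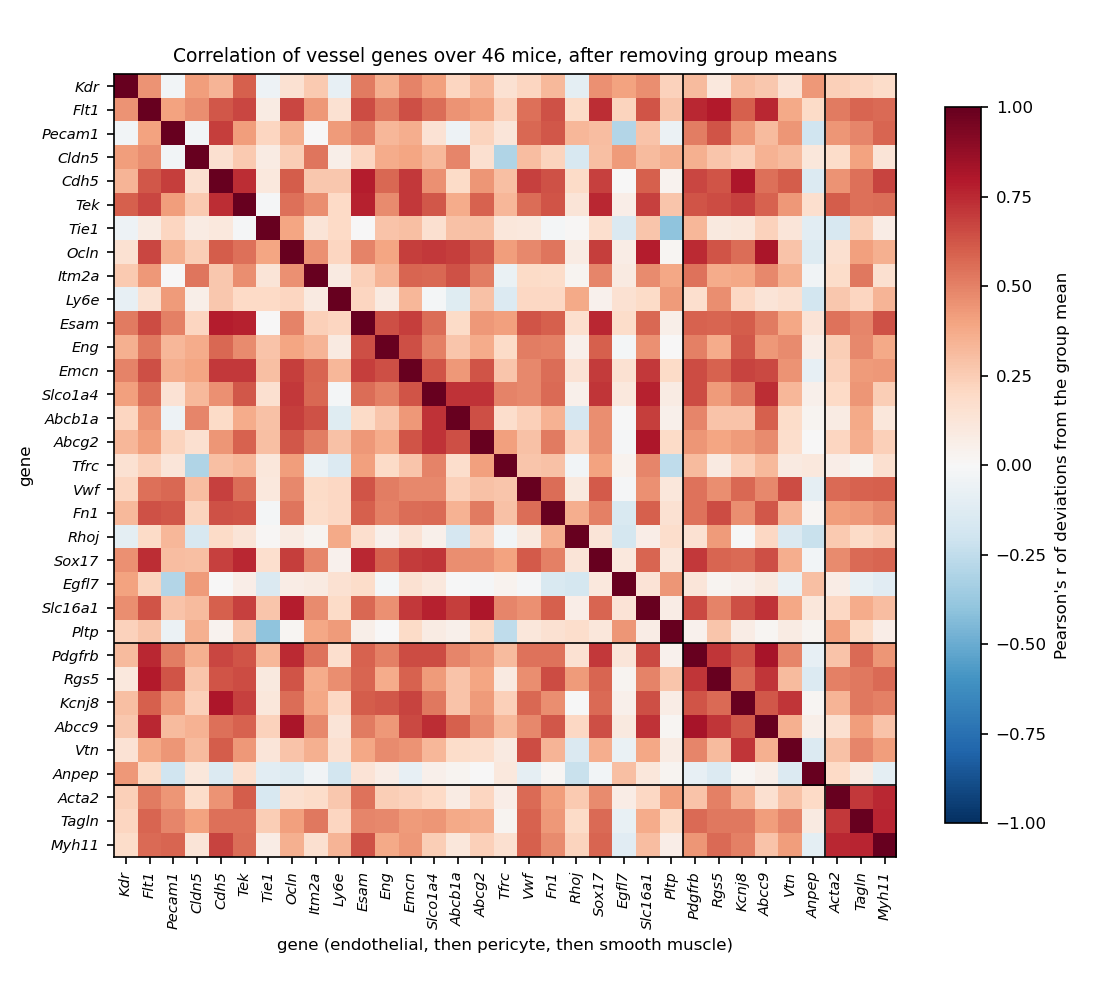
Each cell shows Pearson's r between 2 vessel genes over 46 mice after the mean of each of the 8 groups was removed, from blue (-1) to red (1), with lines that separate endothelial, pericyte and smooth muscle genes. Acta2, Tagln and Myh11 form the dark block at the lower right (0.71 to 0.76), and the endothelial pairs range from -0.40 to 0.81.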

How the data were processed

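BNST tissue of 46 mice was measured on Affymetrix mouse whole-genome expression arrays, 1 per mouse. The authors summarised probesets with RMA, applied quantile normalization and removed batch effects with ComBat, and deposited 1 table of log2 intensities. Versions of their software, and which array belonged to which batch, are not given in the sources used here. No batch term was therefore fitted. Values were used as deposited. All 45037 probesets and 46 arrays entered 1 linear model with a mean for each of the 8 groups (limma 3.58.1, R 4.3.3), with two-sided moderated tests or F tests and Benjamini-Hochberg adjustment over all probesets per comparison. Calls required an adjusted p no higher than 0.01, the threshold in the study's methods. How precise the means are depends on the number of mice.

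Members and gene lists were chosen with earlier results of these data known. Values by group are given for members called in any of 8 tests and for Cldn5, Pecam1, Cdh5, Pdgfrb, Rgs5 and Acta2, and the others by difference or range. At most 3 called genes of each list are named with a value. Comparison lists were counted by representative probeset. The fit was tested on simulated data. Platform annotation gave 1 symbol to 34945 probesets, several to 932 and none to 9160. Alternatives were array weights, the 2 groups alone, aligned medians, another variance moderation, a filter on dim probesets, residual components, 1 probeset per gene, probeset suffix, a looser threshold and leaving out arrays.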

Additional observations from a re-analysis of the deposited data

Results flagged for a closer look

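Within groups of 4 to 6 mice, 11 of 168 checks (21 genes in 8 groups, 6.55%) found a mouse whose gap to the nearest other mouse passed Dixon's 95% critical value, where chance gives about 1 in 20. In Ctrl at 72 h, replicate 34 was lowest for Kdr (7.98, next 8.19) and highest for Pecam1 (6.88, next 6.50), Fn1 (9.35, next 9.01) and Rgs5 (11.7, next 11.5), and replicate 24 was lowest for Slco1a4 (10.6, next 10.8). In Ctrl at 0 h, replicate 48 was lowest for Itm2a (11.6, next 11.9) and Abcb1a (8.63, next 9.03). In CIE at 8 h, replicate 69 was highest for Cldn5 (10.2, next 9.89) and Abcb1a (9.32, next 9.16). In CIE at 72 h, replicate 71 was lowest for Itm2a (11.7, next 11.9), and in Ctrl at 7 d, replicate 46 was highest for Abcg2 (9.32, next 9.15).

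The difference between CIE and Ctrl itself changed between times, by limma's F test over all 46 arrays, for 6 probesets: Kdr (adjusted p 0.00699), Itm2a in 1 of its 2 probesets (0.00699), Abcg2 (0.00121), Rhoj (3.68e-06) and both probesets of Vtn (0.00562 and 0.00593). Kdr, Itm2a and Vtn were lowest against Ctrl at 0 h, Rhoj was highest against Ctrl at 0 h, and Abcg2 had opposite signs at 8 h and 72 h.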

How the results depend on the processing

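None of the 12 called differences of single members changed direction under any alternative. The fit of the 2 groups alone called 5 members at 0 h (10 with all 46 arrays), 0 at 8 h (1) and 0 at 72 h (1). It has fewer degrees of freedom. At 72 h the count was 4 with array weights, 2 with a trended and robust variance, 2 with the dimmest probesets removed (the lowest 25% by mean, 7 of them members), 5 with 2 residual components and 3 at an adjusted p of 0.05. At 8 h it was 3 with residual components and 3 at 0.05. Residual components gave 19 for CIE against Ctrl over the 4 times, 11 for the change of the effect, 28 for Ctrl over time and 26 for CIE over time, and a threshold of 0.05 gave 17 for CIE against Ctrl over the 4 times and 25 for Ctrl over time. Counted as genes by 1 probeset each, of 33, there were 6 at 0 h, 7 for Ctrl over time and 11 for CIE over time. With the 3 arrays that correlated least left out, an alternative chosen after seeing the data, there were 2 at 72 h and 24 for Ctrl over time. The cause of these changes in count was not tested. The share of all probesets called was not counted under any alternative, here or with 1 array left out. These counts describe how far the calls depend on the setting, and not how the members compare with all probesets.

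Leaving out 1 array at a time gave 8 to 12 calls at 0 h, 1 to 1 at 8 h, 0 to 2 at 72 h, 0 to 0 at 7 d, 10 to 13 over the 4 times, 2 to 7 for the change of the effect, 8 to 19 for Ctrl over time and 15 to 19 for CIE over time. The Pltp call was lost without Ctrl 0 h replicates 12, 30, 38, 56 or 64 or CIE 0 h replicates 19, 26, 43 or 57 (adjusted p 0.0113 to 0.0288), that of Rgs5 without Ctrl 0 h replicates 30, 38, 56 or 64 or CIE 0 h replicates 17, 19, 26 or 57 (0.0114 to 0.0248), and that of Abcg2 at 72 h, and with it the count, without Ctrl 72 h replicates 16, 34, 44, 52 or 68 or CIE 72 h replicates 3, 29, 35, 61 or 71 (0.0102 to 0.0342). The count at 72 h was 2 without Ctrl 0 h replicates 12, 48 or 56, Ctrl 8 h replicate 66, Ctrl 72 h replicate 24, CIE 0 h replicates 19 or 67 or CIE 8 h replicates 21, 41 or 69. The change of the effect had 2 or 3 calls without Ctrl 0 h replicates 12, 30, 38 or 64 or CIE 0 h replicates 17, 19, 26 or 57, and Ctrl over time 8 without Ctrl 72 h replicate 68. The other member calls for CIE against Ctrl at a single time were kept in all 46 fits. Array medians aligned left 8 falls and 1 rise at 0 h. No paired analysis was possible because the groups share no replicate number.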
